A study of Mus musculus with 6 samples.

Results

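The FOS, JUN and BATF genes encode the core subunits of activator protein 1 (AP-1), and the Ikaros peaks named for them were taken from 3 lists of wild-type (WT) mouse natural killer (NK) cells. The 10 genes examined were Jun, Junb, Jund, Fos, Fosb, Fosl1, Fosl2, Batf, Batf2 and Batf3, out of 21900 protein-coding genes of the RefSeq gene table. They were chosen by name, with earlier results of these data known. A peak belonged to one of them where the authors' gene column gave that name. Of the 10, 6 had at least 1 peak in any list, beside 9.54% of all coding genes, and Jun, Fosb, Fosl1 and Batf2 had none. Without WT replicate 2 the count was 2, Junb and Fos. The 6 genes had 10 peaks at 7 regions, 1 peak in the list of WT replicate 1, 7 in that of replicate 2 and 2 in that of replicate 3.

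Chromatin immunoprecipitation with sequencing (ChIP-seq) was made with an antibody against Ikaros (Ikzf1), a zinc finger transcription factor of lymphoid cells. The series holds 3 libraries of NK cells with a conditional Ikzf1 deletion in cells that express NKp46 (Ikzf1 KO) and 3 libraries of WT NK cells. All cells came from spleen and were expanded outside the animal in medium with IL-15 at 50 ng/ml, a cytokine on which NK cells depend, and 2 µg of antibody were used for each precipitation. The strain, age and sex of the mice are not given in the labels. Peak lists were used for the WT libraries only, and the KO libraries were not analysed here. No comparison between genotypes was made, so whether a peak depends on Ikaros was not tested.

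AP-1 is a dimer of basic leucine zipper (bZIP) proteins that binds short palindromic DNA sites. JUN proteins can pair with each other or with FOS proteins, FOS proteins need a JUN partner, and BATF proteins pair with JUN proteins and bind DNA together with IRF factors. In lymphocytes several of these genes respond quickly to receptor or cytokine signals, and their products act on genes of proliferation and effector function.

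The lists held 685, 2084 and 1342 peaks in WT replicates 1, 2 and 3, with median fold enrichments of 5.10, 4.73 and 4.99. Fold enrichment is the authors' value for each peak over the background that their peak caller used, and it ranks peaks within 1 list only. Percentiles below are ranks within a list, with 100 for the highest value. Another list held an overlapping peak for 90.5% of the peaks of replicate 1, 50.0% of those of replicate 2 and 75.1% of those of replicate 3. Of 7 fixed NK marker genes, Klrb1c had a region in all lists and Gzmb a peak in replicate 2, and 0 of 13 T cell, B cell and myeloid markers had a peak; 9.54% of all coding genes had one in any list. Peaks do not measure expression, so the labelled cell type could not be checked from them.

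The DNA under the peaks could be read where a peak crossed the start site window of a gene, which held for Batf and Fosl2. A window runs from 250 bases before the start site to 50 after it, as RefSeq gives it for build GRCm38.p6 (the mm10 assembly), and 8 of the 10 genes had one. The whole Batf peak of replicate 2, chr12:85686509-85686716, lay in its window, and the Fosl2 window, chr5:32136222-32136521, lay whole in the Fosl2 peak. Those sequences are shown with the windows of Junb, the gene with a peak in all lists, chr8:84978699-84978998, and Jun, a gene with none, chr4:95052173-95052472. Batf and Fosl2 are on the plus strand and Junb and Jun on the minus strand. Each is given 5′ to 3′ along its gene, and capitals mark the Ikaros core GGGAA or its reverse complement TTCCC.
Batf, bases under the peak: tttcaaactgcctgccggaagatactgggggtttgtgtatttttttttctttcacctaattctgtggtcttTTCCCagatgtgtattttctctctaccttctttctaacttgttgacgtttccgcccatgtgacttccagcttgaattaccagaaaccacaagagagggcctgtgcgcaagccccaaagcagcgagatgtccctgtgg
Fosl2, start site window: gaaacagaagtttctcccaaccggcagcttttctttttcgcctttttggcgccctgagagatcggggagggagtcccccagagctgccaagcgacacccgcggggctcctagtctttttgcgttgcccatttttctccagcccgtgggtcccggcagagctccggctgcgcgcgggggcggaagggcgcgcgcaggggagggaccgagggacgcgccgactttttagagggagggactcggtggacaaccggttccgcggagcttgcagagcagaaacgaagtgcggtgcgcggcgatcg
Junb, start site window: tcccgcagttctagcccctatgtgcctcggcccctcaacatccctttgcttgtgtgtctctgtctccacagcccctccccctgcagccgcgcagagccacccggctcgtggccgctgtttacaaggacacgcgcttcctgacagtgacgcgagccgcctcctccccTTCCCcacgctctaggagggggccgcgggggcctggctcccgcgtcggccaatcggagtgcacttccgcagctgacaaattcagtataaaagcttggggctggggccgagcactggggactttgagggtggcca
Jun, start site window: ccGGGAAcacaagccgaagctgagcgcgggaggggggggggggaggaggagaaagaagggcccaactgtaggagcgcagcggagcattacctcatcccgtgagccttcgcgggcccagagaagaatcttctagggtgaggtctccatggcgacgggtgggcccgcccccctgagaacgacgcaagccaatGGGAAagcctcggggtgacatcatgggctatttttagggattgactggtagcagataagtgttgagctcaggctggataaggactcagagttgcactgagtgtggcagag

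The Batf peak held 1 core match, at positions -140 to -136 relative to the start site. Read on the other strand it is part of the longer motif TGGGAA, whose middle lay 30 bases from the middle of the peak. The Fosl2 window, which is 19.4% of the Fosl2 peak, held 0 core matches, and the rest of that peak was not read. The Jun window held 2 and the Junb window 1, and neither lay under a peak. Of the 8 windows 7 held a core match, while 62.7% of all 32851 start site windows held one. The longer motif was in the windows of Batf, Jun and Jund, and in 25.6% of all windows. The AP-1 site TGANTCA and the related site TGACGTCA were in 0 of the 8 windows, against 7.81% and 1.79% of all windows. Both strands were searched, and a core inside a longer match was counted for both. The letters are a description of the windows, and the sequences of the other peaks were not used here. The GC content was 64.7% in the Fosl2 window and 49.7% in the whole Batf window, and the median over all windows was 52.7%. Under the Batf peak, a part of its window, it was 46.2%.

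Among the JUN genes, Junb had the one region that all lists shared. JUNB is a JUN family member that can replace JUN in AP-1 dimers, often with a different effect on target genes. Junb (ENSMUSG00000052837) lies on the minus strand of chromosome 8, 84976909 to 84978748. Its peaks were chr8:84976306-84976613 in replicate 1, chr8:84976345-84976642 in replicate 2 and chr8:84976396-84976596 in replicate 3, and 201 bases were common to them. They lay beyond the RefSeq end of the gene and not at its start, 2.11 to 2.44 kb from the start site.

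At the Junb region fold enrichment was 3.98 in replicate 1, 4.82 in replicate 2 and 4.87 in replicate 3. The −log10 q values were 2.11, 5.35 and 4.32. The region was thus near the bottom of the list of replicate 1, at percentile 10.1, and near the middle of the others, at 52.9 and 45.8. In replicate 1, 83 of 685 peaks had a lower −log10 q. The nearest bases of the peaks were 296, 267 and 313 bp from the RefSeq span of the gene, while the authors' distance was 0 in each list. By that value the peaks met the gene in their annotation, which is not given and could not be checked. The next coding gene on that side, Prdx2, which encodes a peroxiredoxin, was 1495 bp from the region.

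Jund had 2 peaks, both in replicate 2. JUND is the JUN family member that many resting cells express. Jund (ENSMUSG00000071076) lies on the plus strand of chromosome 8, 70697739 to 70700616. The first peak, chr8:70698841-70699747, lay inside the span with a fold enrichment of 3.67 (percentile 8.45) and a −log10 q of 2.37. The authors' column also named Gm11175 there. The table gives Jund 2 transcripts but 1 start site window, so whether this peak lay at the start of the other transcript was not examined.

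The second Jund peak, chr8:70700639-70700885, began 23 bp beyond the end of the gene and 0.436 kb short of Iqcn. Its fold enrichment was 6.25 and its −log10 q 9.13, at percentiles 83.4 and 86.5 of the list of replicate 2. On either value it was the highest of the 7 peaks of the AP-1 genes in that list. No peak of replicates 1 and 3 came closer to Jund than 87.4 kb, where all lists had a peak that the authors named for Gm45546.

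Jun, the founding member of the family, had no peak named for it. Its nearest peaks were 5763339, 147653 and 3663053 bp away in replicates 1, 2 and 3. The gene lies on chromosome 4, 95049036 to 95052222, and its nearest coding neighbours, Mysm1 and Fggy, were 69.9 and 505 kb away. The closest of these, that of replicate 2, was named for Gm12708 and had a fold enrichment of 4.15.

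**Figure D1:**
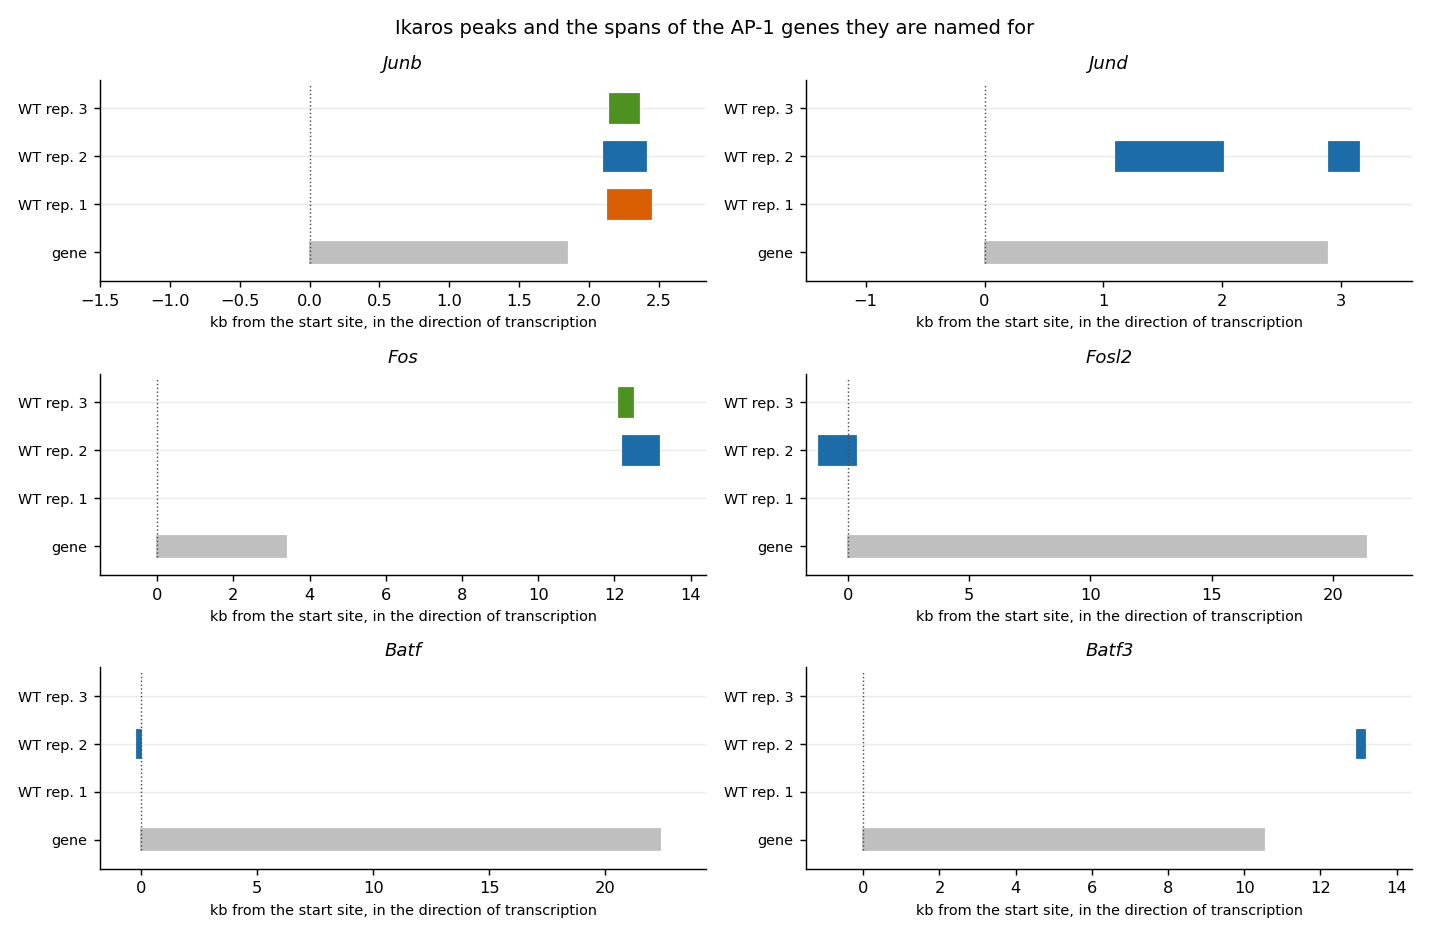
Peaks of the 6 AP-1 genes that had one, drawn by WT replicate (coloured bars) above the RefSeq span of the gene (grey), in kb from the start site along the direction of transcription. The scale differs between panels, and the Junb peaks of all 3 lists sit beyond the end of the RefSeq span, 2.11 to 2.44 kb from the start.

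Among the FOS genes, Fos had a region in 2 lists, far beyond its end. FOS is the classic immediate early partner of JUN. Fos (ENSMUSG00000021250) lies on the plus strand of chromosome 12, 85473890 to 85477274. Its peaks were chr12:85486110-85487047 in replicate 2 and chr12:85486004-85486376 in replicate 3, which shared 267 bases. Fold enrichments were 5.07 and 5.68 (percentiles 60.5 and 67.5), and −log10 q values were 5.58 and 5.63. The peaks had like ranks within their own lists, and that of replicate 2 was wider, 938 against 373 bp. They began 8.84 and 8.73 kb beyond the end of the gene.

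No coding gene other than Fos lay near the region, which was 111 kb from Tmed10 and 112 kb from Jdp2. In replicate 1 the nearest peak to Fos was 1414709 bp away. Jdp2, a bZIP repressor of AP-1 activity, lies between Fos and Batf, and these last 2 genes are 209 kb apart. Jdp2 was named in 0 of the 3 lists.

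Fosl2, which encodes the FOS-related protein FRA-2, had 1 peak, in replicate 2, over its start site. The peak, chr5:32135289-32136831, reached from -1.18 to 0.359 kb relative to the start site. It was 1543 bp wide, at percentile 99.2 of width in that list. Its fold enrichment of 3.62 was at percentile 7.34 and its −log10 q was 1.78. The nearest peaks of replicates 1 and 3 were 1981091 and 1778495 bp from the gene.

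Fosb and Fosl1, which encode FOSB and FRA-1, had no peak named for them. The nearest peak to Fosb was the same site in all lists, 93.9, 93.9 and 94.0 kb away, and was named for Klc3. Its fold enrichments were 7.87, 5.77 and 5.94 in replicates 1, 2 and 3. The nearest peaks to Fosl1 were 112 kb away in replicate 1, named for Ap5b1, and 80.6 kb away in replicates 2 and 3, named for Eif1ad. The authors' distance to those genes was 0 for each of these peaks.

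Among the BATF genes, Batf and Batf3 each had 1 peak, and both were in replicate 2. BATF lacks a transactivation domain of its own and partners JUN proteins in lymphocytes. The Batf peak described above ended 4 bp before the start site of the gene (ENSMUSG00000034266), which lies on chromosome 12, 85686720 to 85709087. The authors' distance for this peak was 0, as for the Junb peaks. It was 208 bp wide, with a fold enrichment of 3.71 (percentile 9.88) and a −log10 q of 1.77. In replicate 3 the peak nearest to Batf was that named for Fos, 200344 bp away.

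BATF3 is known for its role in the development of cross-presenting dendritic cells. The Batf3 peak, chr1:191111378-191111578, lay 2.44 kb beyond the end of the gene (ENSMUSG00000026630, chromosome 1, 191098414 to 191108943) and 13.0 kb from its start site. Its fold enrichment was 4.57 (percentile 44.5) and its −log10 q 3.61. Its width of 201 bp is the smallest found in each of the 3 lists, and other peaks share it, such as the Junb peak of replicate 3. The nearest peaks of replicates 1 and 3 were 4132631 and 2064250 bp away.

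Batf2 had no peak named for it. The nearest lay 475 kb away in replicate 1, 36.1 kb away in replicate 2 and 191 kb away in replicate 3, and these were named for Map3k11, Snx15 and Sf1. Batf2 and Fosl1 both lie on chromosome 19, 0.708 Mb apart.

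**Figure D2:**
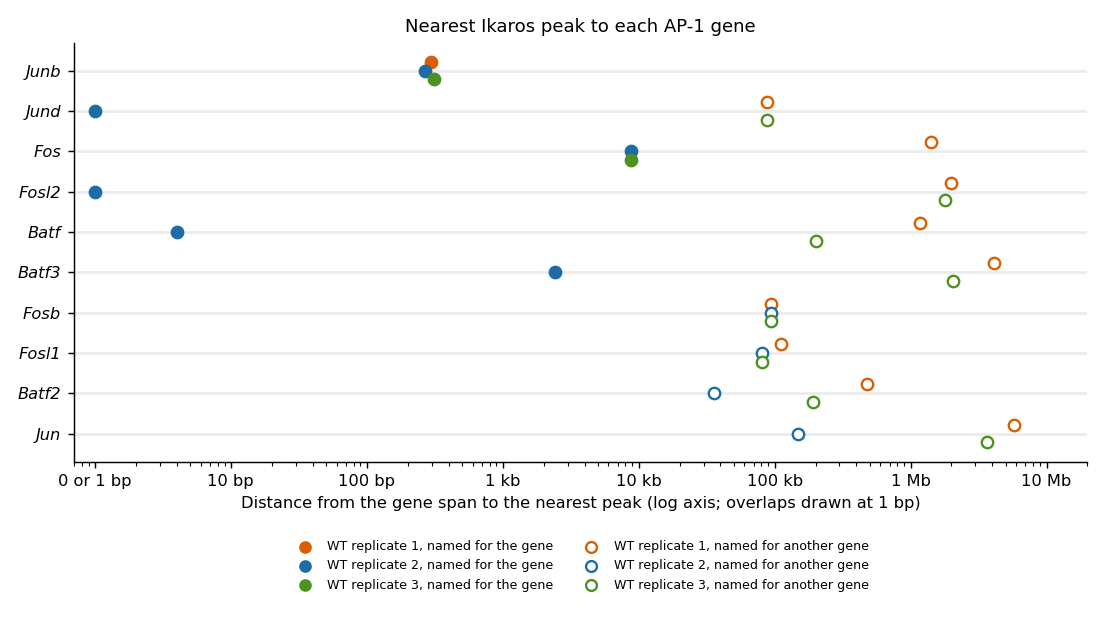
Distance in bp, on a log axis, from the RefSeq span of each of the 10 AP-1 genes to the nearest peak of each WT replicate. Filled points are peaks that the authors named for the gene and open points peaks named for another; for Jun, Fosb, Fosl1 and Batf2 all points are open and the nearest is 36.1 kb away.

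The peaks of the AP-1 genes were spread over their lists. The 7 peaks of replicate 2 ran from percentile 7.34 to 83.4 of fold enrichment, with a median of 44.5. Fosl2, the Jund peak inside the gene and Batf made up the lowest group, at 7.34, 8.45 and 9.88. Ranked by −log10 q the same peaks were at 10.9, 22.1 and 10.6, and Junb of replicate 2 moved up to 67.2. Of the 7 peaks, 3 were at least 900 bp wide (Fosl2, Fos and the Jund peak inside the gene), as were 5.52% of all peaks of the list. The 900 bp limit was not part of the plan and lies just under the narrowest of the 3, at 907 bp. The count and the share can therefore not be compared. Over the list, peaks of at least 900 bp had a median fold enrichment of 4.46, against 4.74 for narrower ones.

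**Figure D3:**
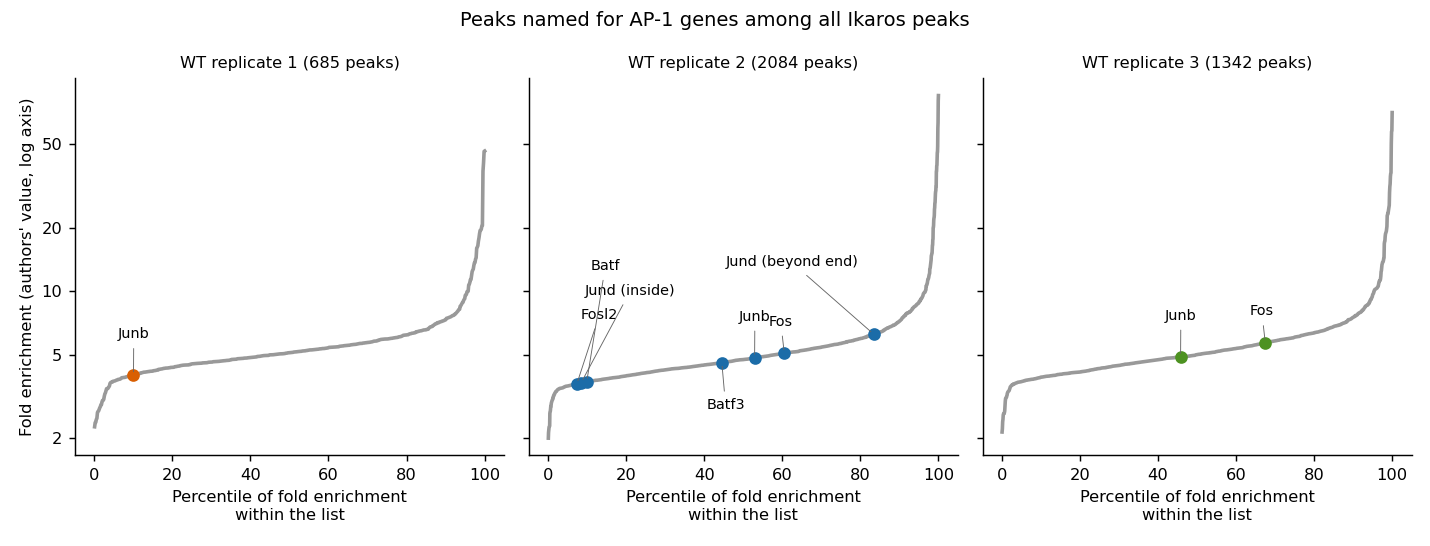
Fold enrichment on a log axis against percentile within the list, for all peaks (grey line) and peaks named for AP-1 genes (points), 1 panel per WT replicate. The highest point is the Jund peak beyond the end of the gene, at 6.25 in replicate 2, and no AP-1 gene reaches the steep top of a list.

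By the RefSeq spans, the peak lay beyond the end of its gene in 4 of 7 regions, namely at Junb, Jund, Fos and Batf3. The authors' distance for the Junb peaks was 0, as described above. The start site window was met at 2 regions, Fosl2 and Batf, and 1 region lay inside Jund. Shares were taken over the coding genes named in the lists that had a start site window, and other named genes were left out. Of pairs of a peak and such a gene, 5.87% (SD 1.00, n = 3 lists) had the peak beyond the end, and 53.8% (SD 3.74) met a start site window. Peaks inside the gene made up 32.0% (SD 1.79) and those before the start 8.33% (SD 0.982). Positions within 1 kb beyond the end, as at Junb and the second Jund peak, made up 0.552% (SD 0.0539) of pairs, from 3 of 492 in replicate 1 to 8 of 1472 in replicate 2. Those counts include the Junb peaks and, in replicate 2, the Jund peak, and the 1 kb limit was not part of the plan. The 7 regions lie at 6 genes and were not tested against these shares.

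Of the 7 peaks of replicate 2, the Junb and Fos peaks overlapped a peak of another list and 5 did not. Over the list 1041 of 2084 peaks did, and the share went with strength. With the list cut into 10 groups by −log10 q, it was 20.1% of the 209 lowest peaks and 97.1% of the 208 highest. The Fosl2 and Batf peaks were in the next to lowest group, where the share was 28.4%. The Jund peak beyond the end of the gene stood apart from this order, since 272 of the 283 peaks with at least its −log10 q had a partner and it was 1 of the 11 without. The reason was not tested, and the lists give no read counts at Jund for replicates 1 and 3.

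**Figure D4:**
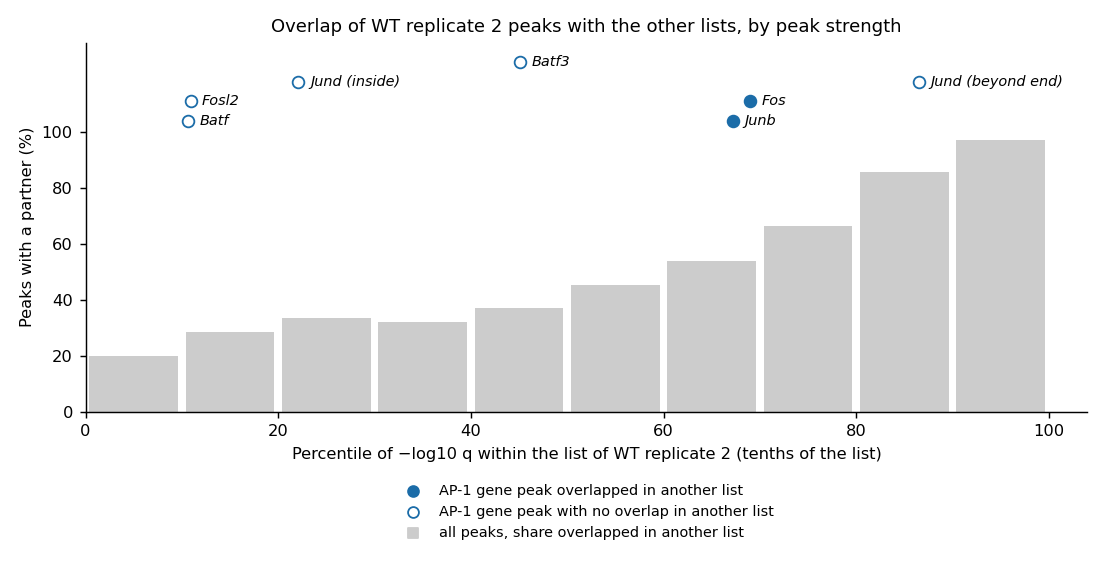
Share of peaks of WT replicate 2 with an overlapping peak in another list (grey bars, %), in 10 groups by −log10 q, with the 7 peaks of AP-1 genes placed above by their own percentile (height of the points has no meaning). Filled points, Junb and Fos, have a partner; the open point farthest to the right is the Jund peak beyond the end of the gene.

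The lists named 1, 6 and 2 of the 10 genes in replicates 1, 2 and 3, against 2.71%, 7.79% and 5.52% of all coding genes. In any list the count was 6 of 10 (60%, exact Clopper-Pearson 95% interval 26.2 to 87.8), against 9.54% of all coding genes. A region in 2 or more lists was found for Junb and Fos, 2 of 10 (20%, interval 2.52 to 55.6), against 4.35%. A region in all lists was found for Junb, 1 of 10 (10%, interval 0.253 to 44.5), against 1.96%. The count in any list rests on replicate 2: without it 2 genes, Junb and Fos, had a peak. Without replicate 2 or without replicate 3, Junb was the 1 gene with a region in both remaining lists. The intervals cover counting over genes only, and the shares were not adjusted for gene length or spacing. The genes were chosen with earlier results known, so the counts and intervals are not independent of these data.

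Genes around AP-1, in 3 lists of genes, had regions in 2 or more peak lists too. The first list, called partner factors, holds AP-1 partners and also other bZIP factors and BATF partners, so not every gene encodes an AP-1 subunit. Of its 19 genes, 5 had a peak, 4 had a region in 2 or more lists and 1 had it in all lists. The 4 were Creb1, a bZIP factor of cyclic AMP signalling, the small MAF genes Maff and Mafg, and Bach2, which encodes a bZIP repressor. Maff had a peak over its start site in all lists, where fold enrichment was 4.90 in replicate 1, 4.46 in replicate 2 and 5.54 in replicate 3. Creb1 had one at its start site, with 3.88 in replicate 1 and 4.04 in replicate 2, and the shared Bach2 region inside the gene had 4.09 in replicate 2 and 4.02 in replicate 3. Mafg had a peak inside the gene, with 6.26 in replicate 2 and 5.69 in replicate 3.

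Of 23 kinases and serum response factor (SRF) genes upstream of AP-1, 9 had a peak, 8 a region in 2 or more lists and 4 a region in all lists. Those in all lists were Mapk3, which encodes an ERK kinase, Mapk8, a JUN N-terminal kinase (JNK) gene, Map2k4, whose product activates JNK, and Elk4, which encodes a partner of SRF that drives Fos transcription. Fold enrichments of Mapk3 were 5.63, 4.17 and 5.78 in replicates 1, 2 and 3. Those of Mapk8 were 4.63, 3.52 and 4.21. Map2k1, which encodes the kinase MEK upstream of ERK, had the strongest region of this list, inside the gene, with 7.64 in replicate 2 and 8 in replicate 3 (percentiles 91.3 and 92.2). Map3k5, Elk3 and Mrtfb also had a region in replicates 2 and 3, with fold enrichments between 3.88 and 4.94.

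Of 12 genes that limit AP-1 or its kinases, 6 had a peak, 3 a region in 2 or more lists and 1 a region in all lists. That one was Dusp2, a MAP kinase phosphatase gene, with a start site peak at 4.62, 5.12 and 5.75 in replicates 1, 2 and 3. Dusp6, which encodes an ERK phosphatase, had a region before the gene in replicates 2 and 3, at 3.89 and 4.72. Fbxw7, the ubiquitin ligase subunit that recognises JUN, had one inside the gene, at 6.41 and 6.39. The shares with a region in 2 or more lists were 21.1%, 34.8% and 25.0% for the 3 lists of genes, beside 20.0% for the FOS, JUN and BATF genes and 4.35% of all coding genes. With a peak in any list they were 26.3%, 39.1% and 50.0%, beside 9.54% of all coding genes. With a region in all lists they were 5.26%, 17.4% and 8.33%, beside 1.96%. No test was made of these shares, and the genes of the lists were chosen with earlier results of these data known.

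**Figure D5:**
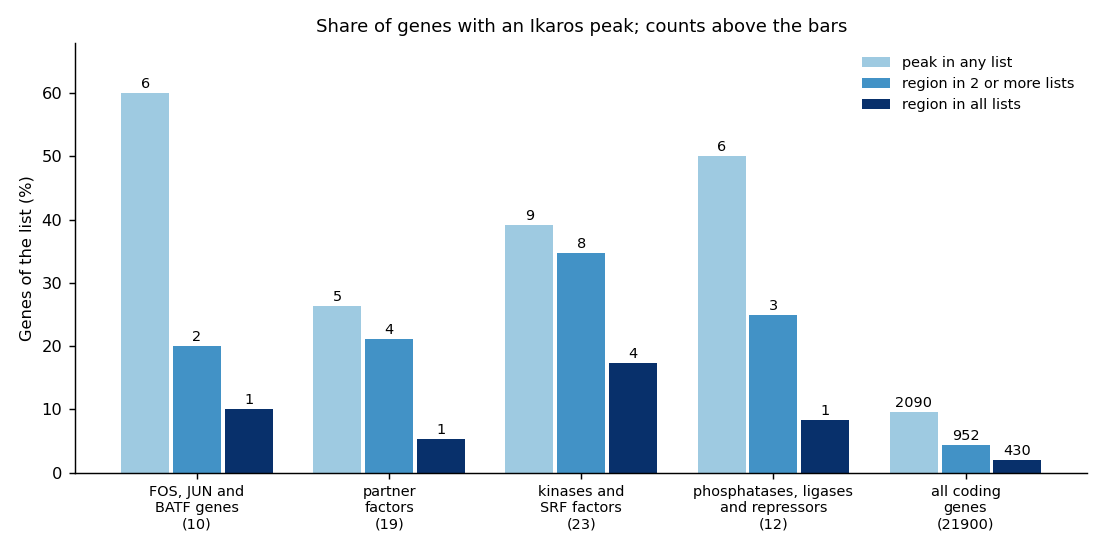
Share of genes (%) with a peak in any list, a region in 2 or more lists and a region in all lists, for the FOS, JUN and BATF genes, 3 lists of genes around AP-1 and all 21900 coding genes, with the number of genes above each bar. The FOS, JUN and BATF bars stand for 6, 2 and 1 of 10 genes.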

How the data were processed

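Ikaros was precipitated from chromatin of WT and Ikzf1 KO NK cells; 3 WT peak lists were analysed, 1 per library, matched to samples by their peak names and the labels' descriptions; the list called replicate 3, as in the sample title, is number 4 in the authors' peak names. MACS2, SAMtools, Picard, Subread, edgeR 3.20.0 and build mm10 are named, without roles, in the submitters' processing notes; the control, q threshold and gene annotation are not given in the sources used here. Per the file headers, the authors deposited for each peak a fold enrichment (a linear ratio), −log10 p and −log10 q values, a score, its width and its distance in bp to a named gene. Read depth is unknown.

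Rows were reduced to 1 per peak. Peaks of 1 gene sharing at least 1 base formed a region. Genes were placed with the RefSeq gene table and start site windows of GRCm38.p6; 2083 of 2145 coding gene names matched (97.1%). All 10 members are named, and from the 3 lists of genes around AP-1 those with a region in 2 or more lists. Members and lists were chosen with earlier results of these data known. The planned search for the bZIP basic region in proteins was not run. No statistical test was made, and the grouping of peaks into regions was checked on simulated intervals. Alternatives covered thresholds, list length, overlap, gene assignment, ranking value and each replicate left out. The labels do not say that libraries came from separate animals, so differences between lists may be technical. Python 3.11.15, NumPy 2.4.6, pandas 2.3.3, SciPy 1.17.1 and matplotlib 3.10.9 were used.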

Additional observations from a re-analysis of the deposited data

How the results depend on the processing

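Of the 10 AP-1 genes, 3 had a peak in any list once only peaks with −log10 q values from 5 upward were kept (Junb, Jund and Fos), 0 from 10 upward, 3 when each list was cut to its 685 top peaks and 9 within 100 kb of the gene. Those with a region in 2 or more lists numbered 1 from 5 upward (Fos), 0 from 10 upward, 1 with midpoints within 200 bp in place of a shared base (Junb) and 5 within 100 kb of the gene. Those with a region in all lists numbered 0 from 5 upward, 0 from 10 upward, 0 with lists cut to one length and 3 within 100 kb of the gene (Junb, Jund and Fosb). In replicate 3, 687 peaks had at least the −log10 q of the Junb peak, so it lay close to the cut at 685. Leaving out 1 replicate gave 2 to 6 genes with a peak, the 2 without replicate 2, and 1 to 2 genes with a region in both remaining lists, which is the range for either count of regions. Assignment by the RefSeq table, within 50 kb or 10 kb, and an overlap of 50% of the shorter peak gave counts of 6, 2 and 1 where each applies. Fewer peaks or a wider window change counts by construction. The share of all coding genes was not computed under these alternatives, so these counts cannot be set against a background. Ranked by −log10 p or −log10 q, 14 of 20 percentiles moved beyond their counting interval. These 2 values ranked each peak nearly alike, so the 20 are not separate results. A list is ranked whole, so the interval is only a yardstick. Some of the moves were small, as from 83.4 to 86.5 by −log10 q for the second Jund peak. No paired analysis was possible because the peak lists used are of WT libraries alone and no test was run. Depth is unknown, so a gene without a peak cannot be told from a weakly bound one.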
